A study of Homo sapiens with 15 samples.

Results

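The enzymes that make, use and break down glutamine and glutamate were followed by 9 genes, GLUL, GLS2, GLUD1, GLUD2, GOT1, GOT2, GPT2, PSAT1 and ASNS, in sorted fractions of PEO1, a human line established from ovarian cancer. Every probe set that the array's annotation gave to a single listed gene was taken, which yielded 12 of 54675 probe sets. These stand for 6 of the 9 genes, out of 19775 genes with a probe set, and each gene's probe sets are named here in order of their mean intensity, the brightest first: GLUL with 4 probe sets, GLUD1, PSAT1 and ASNS with 2 each, and GOT1 and GOT2 with 1 each. GLS2, GLUD2 and GPT2 had no probe set under this rule and were not analysed here. RNA was measured on 15 arrays from 3 fractions. CD90-/CD133- cells lacked both surface proteins, CD90+/CD133- cells carried CD90 alone and CD90+/CD133+ cells carried both, and each fraction had 5 arrays, numbered replicates 1 to 5. All fractions came from parental PEO1 cells of a single line grown in RPMI-1640 with 10% serum, stained live for both surface proteins and sorted, with no other treatment. CD90 is a surface glycoprotein encoded by THY1, and CD133 is a membrane protein encoded by PROM1. The replicates of CD90-/CD133- and CD90+/CD133- cells are described as biological, but nothing says this of CD90+/CD133+ cells, and p-values measure the spread between these samples, which may be technical. Both surface proteins are used to enrich stem-like tumour cells, and the study asked how the CD90-positive cells differ in handling ammonia.

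Glutamine carries nitrogen between tissues and feeds it into nucleotides, asparagine and amino sugars. Glutamine synthetase (GLUL) fixes ammonia onto glutamate at the cost of ATP, while glutaminases such as GLS2 release that ammonia again. Glutamate dehydrogenase (GLUD1, and its close relative GLUD2) and the transaminases GOT1, GOT2, GPT2 and PSAT1 then connect glutamate to α-ketoglutarate, the former with free ammonia and the latter by passing the amino group to aspartate, alanine or a serine precursor. Asparagine synthetase (ASNS) takes nitrogen from glutamine to make asparagine and is a known target of the transcription factor ATF4, which cells use when amino acids run short.

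The medians of the sort markers followed the labels: the THY1 medians were 68.4, 966 and 1435 and the PROM1 medians 15.4, 24.6 and 834 in the CD90-/CD133-, CD90+/CD133- and CD90+/CD133+ fractions. Single arrays of PROM1 spanned 9.32 to 44.1, 21.5 to 156 and 429 to 1652 in that order. PROM1 also passed between the CD133- fractions, with the CD90+ side above (log2 difference 0.98, limma adjusted p = 0.0303). Values are intensities on a linear scale, and those under 16 were raised to 16 before log2 was taken, so that differences of dim probe sets are understated. Of the markers of other cell types, LUM and COL3A1 of the 6 fibroblast genes, CDH5 of the 3 endothelial genes and PTPRC of the 3 leukocyte genes measured lay under 16 on all 15 arrays, while the others lay above 16 on some or all arrays. Of these, DCN passed as higher in CD90+/CD133- cells (log2 difference 0.33), COL1A1 in CD90+/CD133+ cells (0.26, and 0.38 over CD90+/CD133- cells) and CD14 in both CD90+ fractions (0.96 and 1.00), and PDGFRB, COL1A2, PECAM1, VWF and CD3E did not pass. The fibroblast sum was 171 to 228, 183 to 220 and 207 to 263 and the endothelial sum 77.9 to 92.2, 78.1 to 96.6 and 87.3 to 110 in the fractions, in the order used for THY1. Of the 6 epithelial genes, 2 were higher and 3 lower in each CD90+ fraction: EPCAM (0.33) and PAX8 (0.30) were higher in CD90+/CD133- cells and KRT8 (-0.98), WFDC2 (-0.93) and KRT18 (-0.60) lower, and MUC16 did not pass. Their summed intensity was 34511 to 38842 in CD90-/CD133- cells, 24293 to 27680 in CD90+/CD133- cells and 22420 to 28789 in CD90+/CD133+ cells. The leukocyte sum was 83.9 to 108, 132 to 190.3 and 115 to 205 in the same order and came mainly from CD14, and the part of these marker genes in the results below was not tested. Array medians were 29.4 to 32.4. The log2 excess of the 3' over the 5' control of GAPDH, a sign of RNA quality, was 0.0233 to 0.0932 in CD90-/CD133-, 0.0902 to 0.268 in CD90+/CD133- and 0.0118 to 0.118 in CD90+/CD133+ RNA, and that of ACTB was 1.31 to 2.17, 1.82 to 3.31 and 1.03 to 2.76. Both reached their highest values in CD90+/CD133- RNA, and their part in the results was not tested either. A single array, CD90+/CD133- replicate 5, stood apart in the amino acid response genes described below, and member results and gene list counts that change without it are given both ways.

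GLUL, GLUD1 and GOT1 were higher in both CD90+ fractions than in CD90-/CD133- cells, GOT2 was lower, and PSAT1 and ASNS did not pass the test. In CD90+/CD133- against CD90-/CD133- cells, 7 of the 11 member probe sets tested were higher, against 18.0% of all 40004 probe sets tested, and 1 was lower, against 17.6%. The median log2 difference of the 11 was 0.62, and that of all probe sets tested was 0.00. In CD90+/CD133+ against CD90-/CD133- cells, 6 of 11 were higher (15.2% of all probe sets) and 1 was lower (18.5%), with a median of 0.50 against 0.00. Counted by gene, 3 of 6 members were higher and 1 was lower in each comparison. Both comparisons use the same 5 CD90-/CD133- arrays. The members were chosen with earlier results of these data known, and the 7 higher in CD90+/CD133- cells include every GLUL probe set. These counts and medians therefore describe the members and do not test them as a group. Arrays with the same replicate number were paired, and a difference was called where limma's p, adjusted by Benjamini-Hochberg over all probe sets tested, was under 0.05. In bulk RNA, fewer cells that express a gene and less RNA per cell cannot be told apart. The CD90+/CD133+ and CD90+/CD133- fractions did not differ at any of the 11 probe sets by the adjusted test (limma), where 8.86% of all probe sets did. With all arrays, 1 of the 11, for ASNS, had an unadjusted p under 0.05. Without CD90+/CD133- replicate 5 the 95% interval of that ASNS difference took in both signs (-0.72 to 0.01). Those of the brightest GLUD1 (-0.36 to -0.03) and the second PSAT1 probe set (0.08 to 0.83) then kept a single sign. None of these passed the adjusted test.

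**Figure D1:**
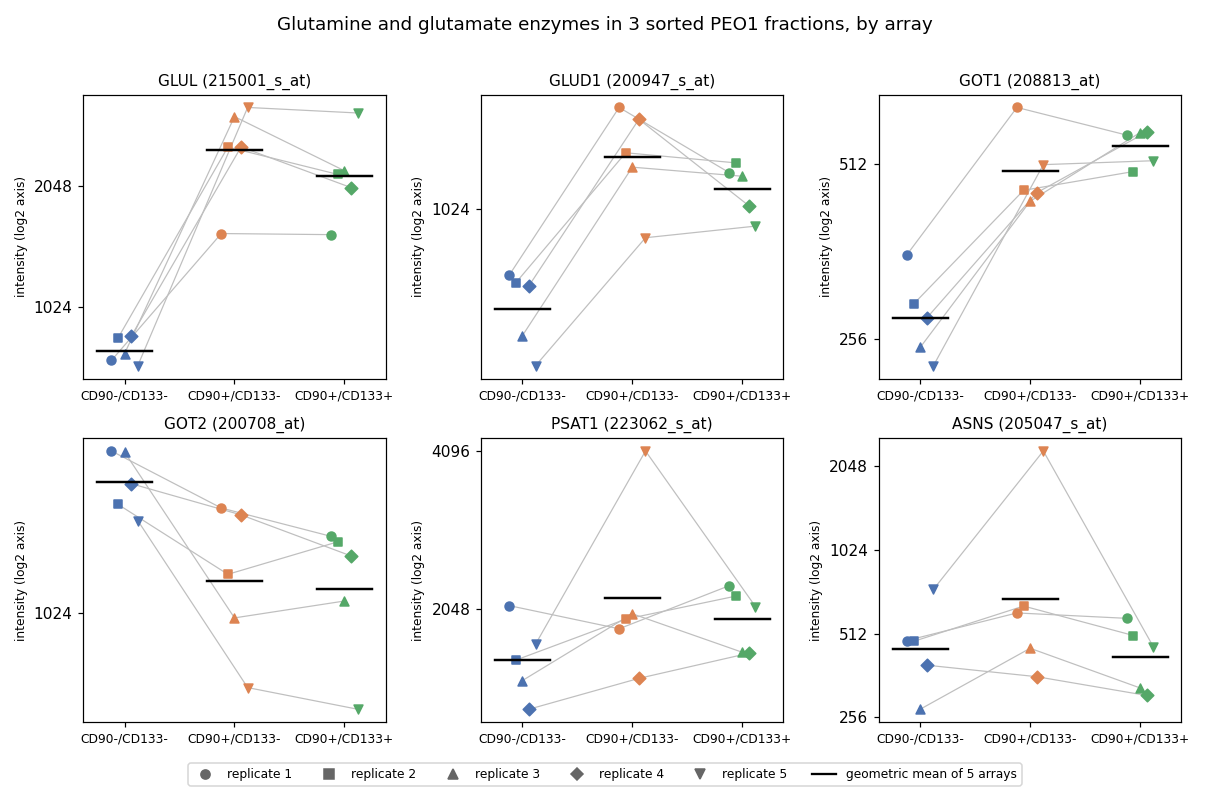
Intensity of the brightest probe set of each measured member on every array (points, log2 axis), by sorted fraction, with symbols for the replicate number, grey lines joining arrays of the same number and black bars for the geometric mean of 5 arrays. GLUL lies between 731 and 865 without CD90 and between 1549 and 3209 on the CD90+ arrays, while ASNS and PSAT1 are set by CD90+/CD133- replicate 5 at 2326 and 4099.

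GLUL, the only enzyme here that makes glutamine, had the largest change of the members. Its brightest probe set read 753, 857, 784, 865 and 731 on CD90-/CD133- replicates 1 to 5. In CD90+/CD133- cells it read 1559, 2557, 3044, 2559 and 3209, and in CD90+/CD133+ cells 1549, 2187, 2233, 2028 and 3109. Every CD90+ array lay above every CD90-/CD133- array, and replicate 1 was the lowest of its fraction in both CD90+ groups. The difference was 3.15-fold in CD90+/CD133- cells (log2 1.66, standard error 0.142, adjusted p = 9.18e-06, n = 5 arrays a fraction) and 2.72-fold in CD90+/CD133+ cells (log2 1.44, adjusted p = 2.34e-05). The authors had singled out GLUL on these same arrays, so its direction is not independent evidence.

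The other GLUL probe sets were much dimmer and moved the same way. The second read 65.1, 62.1, 40.8, 52.2 and 49.2 in CD90-/CD133- cells, against 103 to 163 in CD90+/CD133- and 80.6 to 162 in CD90+/CD133+ cells. The third read 47.3 to 63.7, 80.0 to 120.3 and 83.1 to 144 in the same order. Neither probe set overlapped between CD90-/CD133- cells and a CD90+ fraction, and the log2 differences were 1.30 and 0.95 in CD90+/CD133- cells (adjusted p = 0.000302 and 0.000891) and 1.13 and 1.05 in CD90+/CD133+ cells (adjusted p = 0.000805 and 0.000502). The last lay at 14.3 to 16.1 in CD90-/CD133- cells, close to the floor, and reached 15.2 to 31.4 and 16.3 to 30.6 in the CD90+ fractions. It passed in CD90+/CD133- cells (log2 0.48, adjusted p = 0.0312) but lost its call without CD90+/CD133- replicate 5 (adjusted p = 0.0874) or without the replicate block (0.111), and it did not pass in CD90+/CD133+ cells (log2 0.29, adjusted p = 0.176).

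The promoter stretch of GLUL is shown because this gene led the members. It is taken from RefSeq on GRCh38.p14 and covers the 120 bases before the start of its outermost transcript at chr1:182391791-182391910, minus strand, with capitals for a CCAAT box, a common promoter element that 39.7% of all genes hold on either strand of their 300-base windows (250 before and 50 after a start).
GLUL: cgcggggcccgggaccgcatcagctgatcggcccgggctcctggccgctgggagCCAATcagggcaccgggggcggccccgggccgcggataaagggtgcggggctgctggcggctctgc

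GLUD1, the mitochondrial enzyme that interconverts glutamate with α-ketoglutarate and ammonia, was higher in both CD90+ fractions at both of its probe sets. The brightest read 817, 796, 664, 788 and 599 on the CD90-/CD133- arrays. Its CD90+/CD133- values were 1449.7, 1242, 1182, 1392 and 928, and its CD90+/CD133+ values 1160.4, 1199, 1146, 1036 and 966. The CD90- and CD90+ arrays did not overlap, and replicate 5 was the lowest array of each fraction. The difference was 1.68-fold in CD90+/CD133- cells (log2 0.75, standard error 0.0718, adjusted p = 1.91e-05) and 1.51-fold in CD90+/CD133+ cells (log2 0.59, adjusted p = 9.85e-05). The second probe set read 311 to 433, 422 to 759.8 and 427 to 660.3 in the 3 fractions. Its ranges touched, since replicate 5 was low throughout, yet each of the 5 pairs of arrays with the same number was higher on the CD90+ side in both comparisons (log2 0.62 and 0.50). Both probe sets are of types that can also bind related transcripts, so signal of GLUD1 and of its near-identical relative GLUD2 may not be separable here. The GLUL probe sets apart from the dimmest, both PSAT1 probe sets and the brightest of ASNS share a type with the brightest GLUD1 probe set.

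GOT1 and GOT2, the cytosolic and mitochondrial aspartate transaminases, moved in opposite directions. GOT1 read 358, 295, 248, 279 and 231 on the CD90-/CD133- arrays. CD90+/CD133- cells had 641, 462, 442, 458 and 511, and CD90+/CD133+ cells 575, 498, 581, 582 and 519. The lowest CD90+ array lay above the highest CD90-/CD133- array, and the difference was 1.79-fold (log2 0.84, standard error 0.0942, adjusted p = 5.81e-05) in CD90+/CD133- cells and 1.97-fold (log2 0.98, adjusted p = 2.06e-05) in CD90+/CD133+ cells.

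GOT2 read 1455, 1296, 1452, 1355 and 1251 on the CD90-/CD133- arrays. CD90+/CD133- cells had 1286, 1113, 1012, 1266 and 869.6, and CD90+/CD133+ cells 1209, 1194, 1049.9, 1158 and 829.6. The CD90+/CD133+ arrays lay below all CD90-/CD133- arrays, those of CD90+/CD133- cells overlapped them, and GOT2 was lower in all 5 pairs of both comparisons. The log2 difference was -0.31 (standard error 0.0753, adjusted p = 0.00814) and -0.33 (adjusted p = 0.00542). GOT2 did not pass when the arrays were taken as unpaired (adjusted p = 0.0831 and 0.0648).

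**Figure D2:**
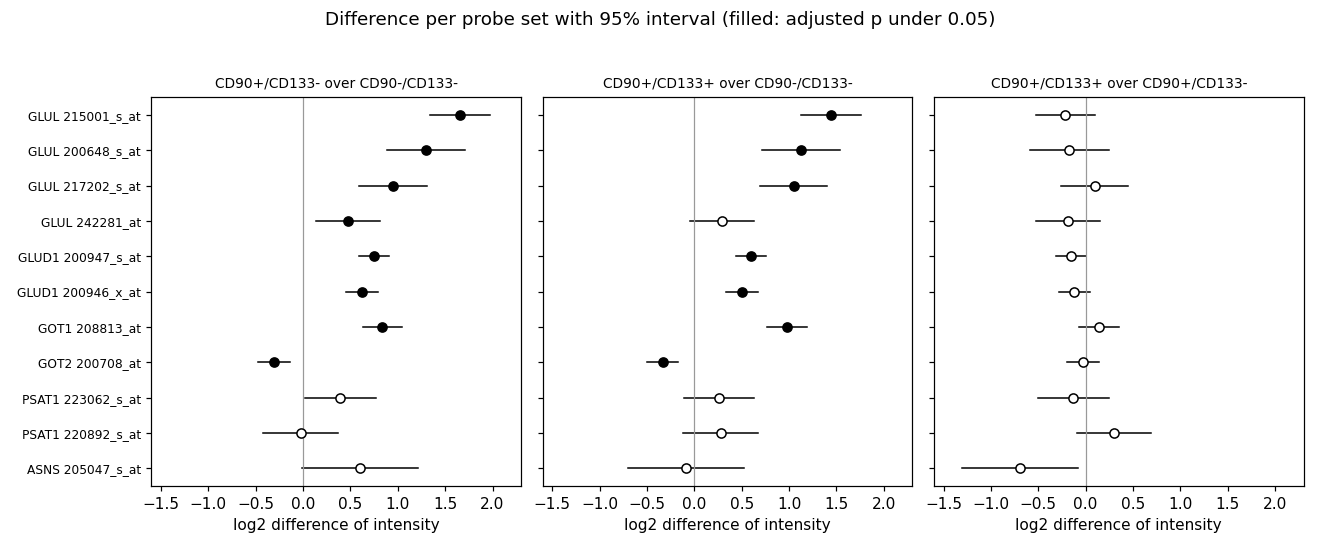
Log2 difference of intensity for each of the 11 member probe sets tested (points) with its 95% interval (lines), one panel per comparison, filled where the adjusted p was under 0.05. GLUL, GLUD1 and GOT1 lie to the right of 0 and GOT2 to the left in both comparisons with CD90-/CD133- cells, and no point is filled between the CD90+ fractions.

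PSAT1, which takes the amino group of glutamate to form phosphoserine, and ASNS did not pass in any comparison. The brightest PSAT1 probe set read 2080.1, 1638, 1497, 1321 and 1757 on the CD90-/CD133- arrays. CD90+/CD133- cells had 1879, 1960.1, 2007, 1512 and 4099, and CD90+/CD133+ cells 2269, 2168, 1695, 1688 and 2072. All CD90+/CD133- arrays but replicate 5 lay within the span of the CD90-/CD133- arrays. The log2 difference was 0.39 (95% interval 0.02 to 0.77, adjusted p = 0.102) in CD90+/CD133- cells and 0.26 (-0.11 to 0.63, adjusted p = 0.288) in CD90+/CD133+ cells, where all 5 pairs were higher. Without CD90+/CD133- replicate 5 the first became 0.18 (adjusted p = 0.156), while the second stayed at 0.26 with a smaller error and passed (adjusted p = 0.0327). The second PSAT1 probe set read 146 to 277, 124 to 324 and 232 to 254, with log2 differences of -0.03 and 0.28, neither of which passed. The CD90+/CD133+ arrays were close together there (SD 0.0483 on the log2 scale), while those of the other fractions spread more widely (SD 0.397 and 0.55).

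The brightest ASNS probe set read 484, 481, 274, 395 and 739 on the CD90-/CD133- arrays. CD90+/CD133- cells had 608, 644, 454, 359 and 2326, and CD90+/CD133+ cells 582, 504, 327, 307 and 460.4. The fractions overlapped, and CD90+/CD133- replicate 5 lay 3.15-fold above the next highest array. The log2 difference from CD90-/CD133- cells was 0.60 (95% interval -0.01 to 1.21, adjusted p = 0.124) in CD90+/CD133- cells and -0.09 (-0.71 to 0.52, adjusted p = 0.865) in CD90+/CD133+ cells. Between the CD90+ fractions it was -0.69 (-1.30 to -0.08, adjusted p = 0.147), lower in CD90+/CD133+ cells in all 5 pairs, with differences from -2.34 to -0.06. Without replicate 5 of CD90+/CD133- cells these values were 0.26 (adjusted p = 0.259), -0.09 (0.703) and -0.35 (0.228). The other ASNS probe set stayed at 6.75 to 9.14, under the floor on all 15 arrays.

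On CD90+/CD133- replicate 5, ASNS and PSAT1 were high together with most known genes of the ATF4 and amino acid response. Of 18 such genes, 17 had the highest of their 15 intensities on this array, while 14.0% of 9988 genes with a mean intensity of at least 64 did. This tally was made after the array had been seen to stand out. ASNS was 4.94-fold and PSAT1 2.25-fold above the median of the other 14 arrays. CTH, which makes cysteine from cystathionine, was at 796 against a median of 85.2 (9.34-fold), and NUPR1, a stress-induced chromatin protein, at 1136 against 151 (7.52-fold). TRIB3, a pseudokinase that dampens ATF4, was at 2499.7 against 436 (5.73-fold), and CHAC1, which degrades glutathione, at 391 against 87.6 (4.46-fold). The exception was ATF4 itself, at 5012 against a median of 4352 and a highest value of 5389. DDIT3, a factor induced by ATF4, reached 1478 against at most 792 elsewhere, and SLC7A11, the cystine carrier, 418 against at most 238. The margin over the next array was small for CBS (340 against 330), ATF3 (506 against 434) and MTHFD2 (4695 against 3992), which are counted among the 17. Among the members, GLUL was also highest there by a small margin (3209 against 3109), and GLUD1 was lower on this array than on the other CD90+ arrays. CD90-/CD133- and CD90+/CD133+ replicate 5 carry the same number, and ASNS read 739 and 460.4 there. Whether the cells, their handling or the RNA of this array set it apart was not tested.

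**Figure D3:**
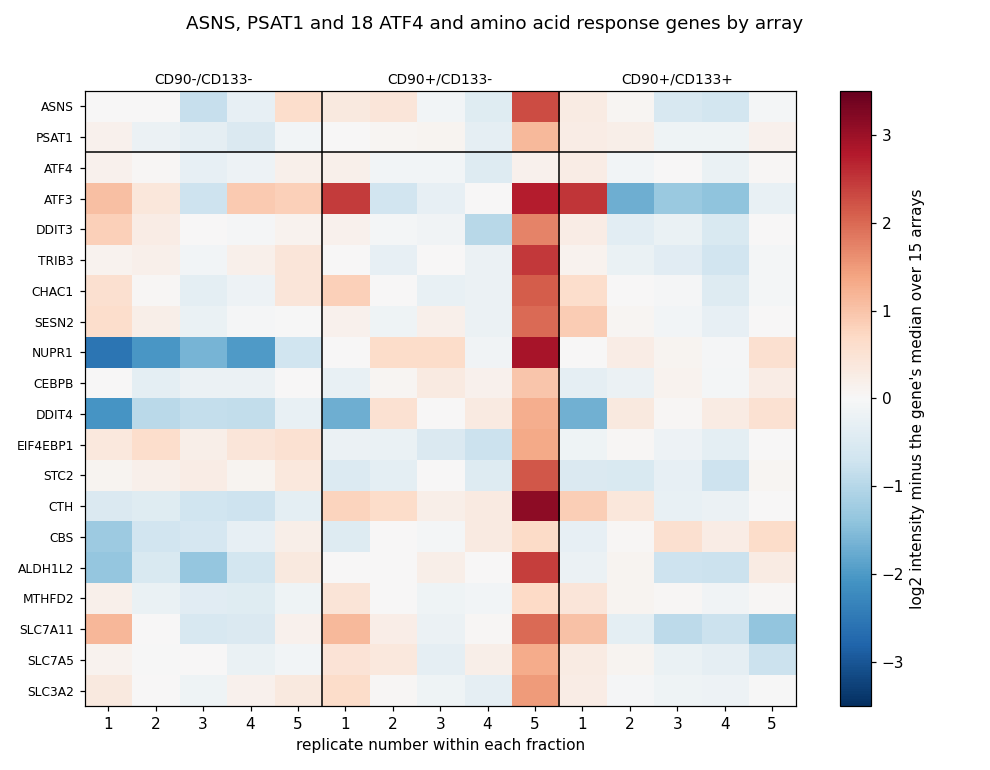
Log2 intensity of ASNS, PSAT1 and 18 ATF4 and amino acid response genes (rows) minus each gene's median over 15 arrays (colour), by fraction and replicate number (columns). The column of CD90+/CD133- replicate 5 is red for ASNS, PSAT1 and 17 of the 18 other genes, and ATF4 is pale on every array.

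Taken over the fractions, 7 of the 18 response genes were higher and 0 lower in CD90+/CD133- cells, and 4 higher and 0 lower in CD90+/CD133+ cells, both against CD90-/CD133- cells. By the brightest probe set of each of 16393 genes, 18.7% were higher and 22.3% lower in the first comparison and 18.1% and 21.4% in the second. NUPR1 rose most, by 2.59 (log2, adjusted p = 5.40e-05) in CD90+/CD133- cells and by 1.95 in CD90+/CD133+ cells. CTH (1.55) and ALDH1L2, a mitochondrial folate enzyme (1.24), rose in CD90+/CD133- cells and did not pass in CD90+/CD133+ cells (0.70 and 0.45). DDIT4, an inhibitor of mTOR signalling (1.08 and 0.90), and CBS, which makes cystathionine (0.62 and 0.77), rose in both. Without CD90+/CD133- replicate 5 the counts were 6 higher and 3 lower in the first comparison, where 18.7% and 21.4% of all genes were, and 5 higher and 4 lower in the second, where 19.2% and 22.5% were, so that the lower calls lay near the share of all genes. There CTH was at 1.03 and ALDH1L2 at 0.96 in CD90+/CD133- cells, CEBPB lost its call (from 0.40 to 0.28, adjusted p = 0.0962) and CTH passed in CD90+/CD133+ cells (0.70, adjusted p = 0.00228). When the arrays were taken as unpaired, 2 genes were higher in the first comparison (13% of all genes) and 1 in the second (11.9%). ALDH1L2 (adjusted p = 0.072 in CD90+/CD133- cells), DDIT4 (0.18 and 0.287) and CBS (0.124 and 0.0599) were among those lost.

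The promoters of ASNS, CHAC1 and GOT1 are shown because they hold the letters TGATGNAA (N is any base), the core of the element that ATF4 and C/EBP proteins bind. On either strand, 4.46% of 27305 genes hold it in a 300-base window. Of the measured members, ASNS and GOT1 did (2 of 6), and of 14 response genes with a window, ATF3, CHAC1 and SLC3A2 did. Capitals mark it in RefSeq sequence of GRCh38.p14, here ASNS at chr7:97872409-97872528 (minus strand, bases -120 to -1 from the start), CHAC1 at chr15:40953221-40953340 (plus strand, -250 to -131) and GOT1 at chr10:99430755-99430874 (minus strand, -250 to -131).
ASNS: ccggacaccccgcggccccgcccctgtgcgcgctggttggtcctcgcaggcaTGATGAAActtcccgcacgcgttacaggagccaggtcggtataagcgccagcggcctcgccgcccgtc
CHAC1: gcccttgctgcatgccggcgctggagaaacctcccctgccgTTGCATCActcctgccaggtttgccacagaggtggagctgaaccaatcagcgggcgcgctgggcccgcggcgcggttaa
GOT1: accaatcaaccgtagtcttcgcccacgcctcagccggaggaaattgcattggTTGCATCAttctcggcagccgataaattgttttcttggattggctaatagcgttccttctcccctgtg
The match begins at -68 in ASNS and reads in the direction of the gene, and at -209 in CHAC1 and -198 in GOT1, where the motif lies on the opposite strand and its complement is printed. ASNS and CHAC1 were high on CD90+/CD133- replicate 5, whereas GOT1 read 511 there, below its 641 on replicate 1. PSAT1, which was high on that array, did not hold these letters in its window, and a match describes the letters and not a bound site.

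Between the CD90+ fractions the order of the members' levels was not resolved. The brightest GLUL probe set was lower in CD90+/CD133+ cells in all 5 pairs, but the log2 difference of -0.21 had a 95% interval from -0.53 to 0.10 (adjusted p = 0.391). That of the brightest GLUD1 probe set was -0.16 (-0.32 to 0.00, adjusted p = 0.200), that of GOT1 0.14 (-0.07 to 0.35) and that of GOT2 -0.03 (-0.19 to 0.14). Each of these intervals spans 0. Without CD90+/CD133- replicate 5 that of the brightest GLUD1 probe set did not (log2 -0.20, -0.36 to -0.03, adjusted p = 0.142). The same held for the second PSAT1 probe set (0.45, 0.08 to 0.83, adjusted p = 0.143), and neither passed. For GLUL, GLUD1 and GOT1 CD90-/CD133- cells thus came lowest and for GOT2 highest, with the CD90+ fractions not told apart by the adjusted test.

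Around these enzymes, 56 genes of 6 neighbouring routes were set beside them, of which 49 could be tested. In CD90+/CD133- cells 9 were higher and 17 lower (18.4% and 34.7%, against 18.7% and 22.3% of all genes), and in CD90+/CD133+ cells also 9 and 17 (against 18.1% and 21.4%). The share higher was thus that of all genes. Without CD90+/CD133- replicate 5 they were 8 and 20 in both comparisons. Each list below holds few genes, and its counts are a description to be read against these shares of all genes. Of 10 other transaminases, 0 were higher in either comparison, and 6 (60.0%) and 4 (40.0%) were lower, or 7 and 5 without that array. The largest fall was that of ABAT, the GABA transaminase, from a mean of 123 to 18.8 in CD90+/CD133- cells (log2 -2.70), where part of the arrays lay under the floor. ABAT was under 16 on all CD90+/CD133+ arrays, at least 7.66-fold lower against that floor. AADAT, which acts on 2-aminoadipate (log2 -0.50 and -0.66), and OAT, which acts on ornithine (-0.44 and -0.59), also fell in both.

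In the malate-aspartate shuttle, GOT1 (higher) and GOT2 (lower) work on either side of the mitochondrial membrane and are counted with the members. Apart from them, 6 genes of the shuttle and of glutamate carriers were tested. Of these 6, 0 were higher and 4 lower in CD90+/CD133- cells, and 1 higher and 4 lower in CD90+/CD133+ cells. The shuttle's oxoglutarate carrier SLC25A11 fell from 330 to 179 in CD90+/CD133- cells (log2 -0.88, adjusted p = 0.000166). It was at 277 in CD90+/CD133+ cells, where it did not pass (log2 -0.25, adjusted p = 0.128). The aspartate-glutamate carrier SLC25A12 fell in both (-0.48 and -0.58), as did the glutamate carrier SLC25A22 (-0.35 and -0.35). The cytosolic malate dehydrogenase MDH1 rose in CD90+/CD133+ cells alone by the test against CD90-/CD133- cells (0.34), and its difference between the CD90+ fractions also passed (0.29, adjusted p = 0.0236).

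The 13 genes tested on routes between glutamate and proline, GABA or glutathione run in either direction, and NAGS among them acetylates glutamate. Of these 13, 5 were higher (38.5%) and 3 lower (23.1%, near the share of all genes) in each comparison. In CD90+/CD133+ cells 4 were lower without CD90+/CD133- replicate 5. GCLC, the catalytic subunit for the first step of glutathione synthesis, rose from 225 to 513 and to 409.9 (log2 1.19 and 0.87, adjusted p = 0.00112 and 0.0079). ALDH5A1, which clears succinic semialdehyde made from GABA, rose by 0.84 and 0.61, and ALDH4A1, which makes glutamate from proline, by 0.67 and 0.70. The amidotransferase list held 9 tested genes, which spend glutamine's amide nitrogen, apart from CPS1, which takes free ammonia. Of the 9, 2 were higher (22.2%, near the share of all genes) and 3 lower (33.3%) in CD90+/CD133- cells, and 1 and 4 in CD90+/CD133+ cells. Without CD90+/CD133- replicate 5 these were 1 and 4, as CAD, which starts pyrimidine synthesis, lost its call (adjusted p = 0.0532) and GFPT1, which makes glucosamine phosphate, gained one as lower (0.0491), and 1 and 5. Unpaired, they were 1 and 0, and 1 and 1. PPAT, the first committed enzyme of purine synthesis, rose (0.62 and 0.37), while the carbamoyl phosphate synthetase CPS1 (-0.48 and -0.61) and the purine enzyme PFAS (-0.46 and -0.30) fell. CPS1 and PFAS did not pass without the pairing (adjusted p of at least 0.116).

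In serine and glycine synthesis, the route of PSAT1, 1 of 4 genes was higher in CD90+/CD133- cells, and 2 were higher and 1 lower in CD90+/CD133+ cells. The mitochondrial serine hydroxymethyltransferase SHMT2 rose in both (0.67 and 0.63), its cytosolic relative SHMT1 rose in CD90+/CD133+ cells (0.36) and PSPH, which follows PSAT1, fell there (-0.73). SHMT1 and PSPH did not pass without the pairing (adjusted p = 0.0809 and 0.0696), nor SHMT1 without CD90+/CD133- replicate 5 (0.0638). Without that array PSPH passed in CD90+/CD133- cells as well (-0.68, adjusted p = 0.00676). Of 7 asparaginases and synthetases that load glutamate, aspartate or asparagine onto tRNA, 1 was higher and 1 lower in CD90+/CD133- cells, and 0 and 1 in CD90+/CD133+ cells. The mitochondrial glutamyl synthetase EARS2 fell in both (-0.60 and -0.67), and EPRS1, which loads glutamate and proline, rose in CD90+/CD133- cells (0.50). Between the CD90+ fractions 3 of the 49 were higher in CD90+/CD133+ cells and 4 lower, where 4.67% and 4.37% of all genes were. Those with the largest difference were SLC25A11 (0.63), EPRS1 (-0.56) and GCLM, the regulatory partner of GCLC (-0.34).

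Each member was also set beside its neighbours on the chromosome, to show whether genes around it had differences of the same sign. The 30 nearest expressed genes around GLUL on chromosome 1 had a median log2 difference of 0.71 in CD90+/CD133- cells, with 22 of 30 higher and 1 lower, and 0.61 in CD90+/CD133+ cells. GLUL, at 1.66 and 1.44, was exceeded by 1 of its 30 neighbours in each. Around GLUD1 on chromosome 10 the medians were 0.37 and 0.43, and with the 10 nearest genes 0.69 and 0.65, which in CD90+/CD133+ cells lay above the 0.59 of GLUD1 itself. Around GOT1, also on chromosome 10, they were 0.42 and 0.51, with 22 and 23 of 30 neighbours higher. GOT2 on chromosome 16 sat among genes with medians of -0.19 and -0.09. Those around PSAT1 on chromosome 9 and ASNS on chromosome 7 were at -0.08 and 0.02 in CD90+/CD133- cells and at -0.12 and -0.05 in CD90+/CD133+ cells. The median of all 9982 such genes was -0.03 and 0.00. Whether copies of these segments differ between the fractions was not tested.

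**Figure D4:**
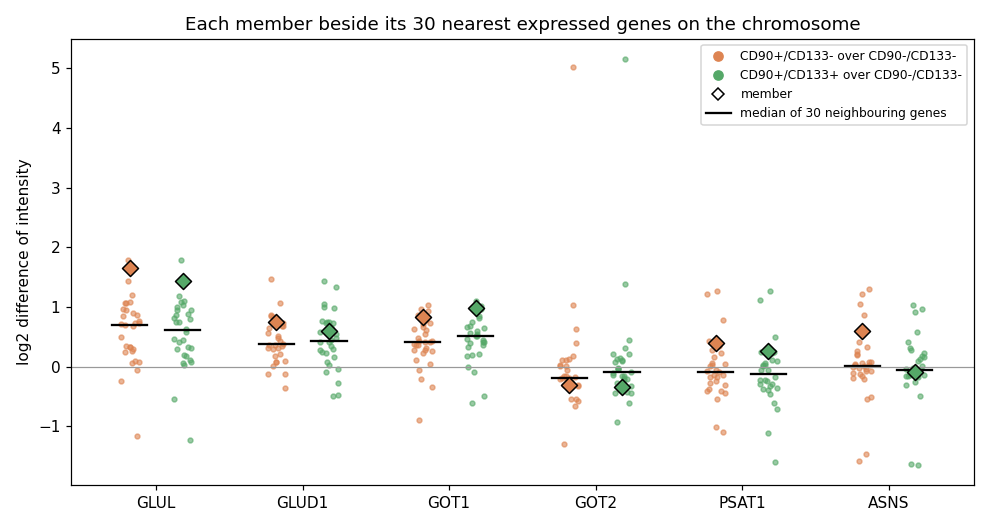
Log2 difference of each member (diamonds) and of its 30 nearest expressed genes on the chromosome (dots, with the median as a bar) in CD90+/CD133- (orange) and CD90+/CD133+ (green) cells over CD90-/CD133- cells. The dots around GLUL, GLUD1 and GOT1 lie mostly above 0, GLUL stands near the top of its neighbours and GLUD1 within them.

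Over the 15 arrays, the genes whose log2 intensity ran most like that of GLUL among 9987 others were LRRC61 (Pearson r 0.98), KLHL14 and ABCA4 (both 0.97), the TGF-β receptor TGFBR2 (0.97) and the aldehyde dehydrogenase ALDH2 (0.97). Their log2 differences from CD90-/CD133- cells were 1.04 to 4.42 in the CD90+ fractions, so these genes share the split between CD90- and CD90+ arrays. For ASNS they were ZCCHC7 (0.93), SLC35F6 (0.92), CHAC1 (0.91), SLC3A2, the heavy chain of amino acid exchangers (0.90), and NFE2L1 (0.90), a stress-responsive transcription factor. Their differences from CD90-/CD133- cells ran from -0.16 to 0.40, and CHAC1 and SLC3A2 are among the genes that were highest on CD90+/CD133- replicate 5. The arrays share a line and, within a number, a label code, and these correlations are a description.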

How the data were processed

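RNA of 15 samples was hybridized by the authors to whole-genome expression arrays, and each deposited value is a probe set's intensity on a linear scale, after the authors' cross-correlation normalization, with 5 as the lowest. How probes were summarised is not given in the sources used here. Although the design text speaks of triplicates, the labels number replicates 1 to 5, which was used.

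Probe sets were named from the platform annotation (41097 name 1 gene, 1801 several, 11777 none) and by RefSeq (GRCh38.p14). Intensities under 16 were set to 16, log2 was taken, and limma 3.58.1 under R 4.3.3 (eBayes on lmFit, with 2-sided tests) was fitted to all 15 arrays with fraction and replicate number as terms. The 40004 non-control probe sets not at the floor on every array were tested, with Benjamini-Hochberg adjustment per comparison and a threshold of 0.05. The fit was tested on simulated data. Same-numbered arrays deviated together from their fraction means. Over 18737 probe sets and all pairs of fractions, r was 0.19 to 0.84 between arrays of the same number. It was -0.65 to 0.36 between different numbers, so the ranges overlap. CD90+/CD133+ replicate 3 had r of 0.23 with CD90-/CD133- replicate 5 and 0.19 with CD90-/CD133- replicate 3. The labels share a code within a number, and the numbers were used to pair the arrays. Replicates 4 and 5 share a code. No arrays were duplicates (highest correlation 0.996). A further gene stood for its brightest probe set.

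The members, gene lists and tests were chosen with earlier results of these data known. The genes named are all members, THY1 and PROM1, the 3 largest called changes (or fewer) in each list and comparison, and the 5 genes most correlated with GLUL and with ASNS, and others in the account of CD90+/CD133- replicate 5 were chosen after their values were seen. Alternatives were unpaired arrays, label code as block, only the fractions compared, other floors, normalizations, filters and gene summaries, an intensity trend, arrays or replicates left out, the methods' t-test and their 1.5-fold threshold. The number of arrays limits the precision.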

Additional observations from a re-analysis of the deposited data

Results flagged for a closer look

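Of 36 sets of 5 arrays (12 member probe sets in 3 fractions), 3 held an array that stood far from the other 4. The sets of the dimmer ASNS probe set lay at the floor throughout and could not be flagged. Among sets that can be flagged, chance flags about 1 in 20. The brightest PSAT1 probe set read 4099 on CD90+/CD133- replicate 5, while the other CD90+/CD133- arrays lay between 1512 and 2007. The dimmest GLUL probe set read 30.6 on CD90+/CD133+ replicate 5 against 16.3 to 19.2 on the others, and 16.1 on CD90-/CD133- replicate 1, the only array of that fraction above the floor of 16, so that the last rests on the floor.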

How the results depend on the processing

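Of 1086 log2 differences of the member probe sets under the alternatives, 1060 kept their direction and side of the threshold or were uncalled in both settings, 20 lost the call, 6 gained one, and no called difference turned. The 1060 include ratios of arithmetic means, which have no p and so no side of the threshold. These were counted as kept because they lay within a standard deviation of the main value. The replicate block bears on GOT2: with unpaired arrays, 6 member probe sets were called in each comparison with CD90-/CD133- cells, in place of 8 and 7, and 0 between the CD90+ fractions. Leaving out 1 array or replicate gave 7 to 9, 7 to 8 and 0 to 0 probe sets in the 3 comparisons. Counted by gene, through the brightest probe set or the mean of probe sets, 4 were called in each comparison with CD90-/CD133- cells, since fewer units are counted. With replicates 4 and 5 left out, 4 probe sets were called in CD90+/CD133+ cells, where GOT2 (adjusted p = 0.0785) and the GLUL probe sets second (0.0758) and next (0.0542) in brightness lost theirs, and GOT2 also missed in CD90+/CD133- cells (0.0604). By a 1.5-fold difference of mean intensities, with no test, 1 probe set, lower in CD90+/CD133+ cells, differed between the CD90+ fractions. ASNS passed in CD90+/CD133- cells without replicates 4 and 5 (adjusted p = 0.0224) or without CD90+/CD133+ replicate 5 (0.0459), and the brightest PSAT1 probe set among bright probe sets only (0.0447) or without CD90+/CD133- replicate 1 (0.0491). PSAT1 also passed in CD90+/CD133+ cells when only the arrays of those fractions were fitted (0.0161).

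The counts for the other gene lists were repeated under settings chosen after seeing the data. With unpaired arrays, 2 and 1 of the ATF4 genes were higher in CD90+/CD133- and CD90+/CD133+ cells, in place of 7 and 4. Of all genes, 13% and 11.9% were higher there. Of the pathway genes, 10 were lower in CD90+/CD133+ cells with unpaired arrays, in place of 17. The share of all genes lower in that comparison was 13.7%, in place of 21.4%. Without CD90+/CD133- replicate 5, or without all arrays of replicate 5, 3 ATF4 genes were lower in CD90+/CD133- cells in both cases, and 4 and 3 were lower in CD90+/CD133+ cells, where all arrays gave 0. With the 10 nearest genes in place of 30, the medians around PSAT1 turned to 0.11 and 0.17, those around GLUD1 moved to 0.69 and 0.65 and those around GOT1 to 0.29 and 0.39. The cause of these changes was not tested. The 5 arrays of a fraction limit the precision, and probe sets near the floor, such as the dimmest of GLUL, understate a difference.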
